A study of Mus musculus with 8 samples.

Results

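The genes described here encode the enzymes, receptors and binding partners that make, sense and remove extracellular adenosine: Nt5e, Entpd1, Adora2a, Adora2b, Adora3, Ada, Adk and Dpp4. They are 8 of the 53657 genes that could be joined over all 8 libraries of the series. The set was chosen by gene symbol, and it was selected on values measured in these libraries, namely the genotype differences in colon and culture and the difference between cytokine mixes. Its values in those comparisons are therefore given as a description, with fold changes and errors but without p-values.

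The 8 mouse RNA-seq libraries hold read counts per gene from CD4+ T cells, and the series title places the study in the field of RORα, mTORC1 and colitis driven by T cells. Rora encodes the nuclear receptor RORα, which T helper 17 (Th17) cells express. KO cells carried a Cre recombinase driven by Cd4 together with floxed Rora (Cd4_cre Rora_fl/fl), and WT cells carried the floxed alleles without Cre (Rora_fl/fl), so both genotypes were floxed and Cre was present in KO cells alone. For the colon libraries (2 KO and 2 WT), naive CD4+ T cells were given to Tcrbd-/- mice, which lack T cells but keep their B cells, innate cells and tissue cells, and CD4+ T cells were recovered from the colon 6 weeks later. For the culture libraries, naive CD4+ T cells were activated on plates coated with anti-CD3 and anti-CD28 and grown for 4 days in IL-6+IL-1β+IL-23 or in TGF-β+IL-6, with 1 KO and 1 WT library in each mix and hence no replicate. PMA and ionomycin, which bypass the T cell receptor, were applied for 2 hours before RNA extraction in all libraries. The sources used here do not give the age, sex or strain of the mice, whether mice were pooled, or how the colon cells were isolated from other cells.

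Extracellular ATP, released by stressed and activated cells, is cut to AMP by CD39 (Entpd1), and AMP is cut to adenosine by CD73 (Nt5e), both on the cell surface. Adenosine binds a family of membrane receptors. Those encoded by Adora2a and Adora2b raise cyclic AMP, and the Adora2a receptor restrains activated T cells, while the Adora3 receptor lowers cyclic AMP. Adenosine deaminase (Ada) turns adenosine into inosine, adenosine kinase (Adk) returns it to AMP inside the cell, and CD26 (Dpp4) is a cell-surface peptidase that also holds adenosine deaminase on the surface of human T cells.

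Of these genes, Nt5e, Adora2b and Adora3 were the ones that rose in KO colon cells. Their promoter windows are shown because these genes rose together in that comparison while their windows differ in base composition. Between cytokine mixes they did not move together: Nt5e was lower under IL-6+IL-1β+IL-23, and Adora2b and Adora3 were higher. Each sequence is the RefSeq window in GRCm38.p6, all on the plus strand, with 250 bases before the annotated start in lower case and 50 bases from the start onward in capitals.
Nt5e, chr9:88327359-88327658: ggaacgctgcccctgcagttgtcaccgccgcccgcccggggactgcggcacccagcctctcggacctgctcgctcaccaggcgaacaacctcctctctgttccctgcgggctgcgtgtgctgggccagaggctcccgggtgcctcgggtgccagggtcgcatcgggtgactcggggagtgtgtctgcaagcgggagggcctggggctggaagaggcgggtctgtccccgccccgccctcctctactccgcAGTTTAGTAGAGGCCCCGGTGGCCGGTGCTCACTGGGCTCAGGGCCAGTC
Adora2b, chr11:62248734-62249033: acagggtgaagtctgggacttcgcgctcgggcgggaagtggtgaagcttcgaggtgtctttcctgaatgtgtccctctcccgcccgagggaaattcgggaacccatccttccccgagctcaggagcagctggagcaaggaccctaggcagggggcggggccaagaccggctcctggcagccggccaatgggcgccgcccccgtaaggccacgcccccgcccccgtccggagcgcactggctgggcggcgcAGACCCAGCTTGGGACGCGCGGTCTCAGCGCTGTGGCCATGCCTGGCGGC
Adora3, chr3:105904171-105904470: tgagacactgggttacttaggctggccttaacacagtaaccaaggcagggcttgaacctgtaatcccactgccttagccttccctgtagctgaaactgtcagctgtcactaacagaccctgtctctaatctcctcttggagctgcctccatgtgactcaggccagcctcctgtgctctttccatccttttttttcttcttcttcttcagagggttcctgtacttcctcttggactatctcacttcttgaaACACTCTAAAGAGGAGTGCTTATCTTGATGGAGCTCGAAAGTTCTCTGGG
The Nt5e window was 71.0% G and C with 23 CG dinucleotides and the Adora2b window 70.0% with 27, whereas the Adora3 window was 48.3% with 1. The median over all windows was 52.7% with 7. The Adora3 window lies inside the annotated span of its gene (105870858 to 105908926) and not at the start of that span. RefSeq windows were matched for 7 of the 8 genes, with 9 windows in all, because Adk and Entpd1 had more than 1. The ROR half-site AGGTCA, its longer form TAGGTCA and the cyclic AMP response element TGACGTCA were searched on both strands. None of the 3 motifs, of which the second contains the first, occurred in the 9 windows. Over all 32851 windows of this length, AGGTCA was found in 16.3%, TAGGTCA in 2.61% and TGACGTCA in 1.79%.

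Library totals ran from 13176752 to 14967756 counts in the colon and from 15252700 to 15922696 in culture. Rora, the deleted gene, had 134 and 149 CPM (the usual count unit scaled to a common library size) in KO colon libraries, against 253 and 291 CPM in WT colon libraries. In culture 38.8% of the WT level was left in the KO library with IL-6+IL-1β+IL-23 and 37.9% with TGF-β+IL-6. The sources used here do not name the floxed exons, and reads from the rest of the gene can persist. The labelled cell type was checked against 14 T cell markers, all of which were detected in every library. Summed over the list, they measured 9564 to 9734 CPM in KO colon libraries and 12078 to 12625 CPM in WT colon libraries, and 11 of 14 fell. Regulatory T cell markers summed to 2811 to 2937 CPM in KO and 3342 to 3361 CPM in WT (3 of 8 tested rose and 3 fell). Markers of other cells were present in the colon and moved with genotype: epithelial markers summed to 140 to 142 CPM in KO and 50.3 to 53.5 CPM in WT (10 of 11 tested rose), fibroblast markers to 112 to 122 CPM in KO and 29.0 to 36.8 CPM in WT (10 of 11 rose), and B and plasma cell markers to 2097 to 2280 CPM in KO and 586 to 599 CPM in WT (6 of 7 rose). Endothelial markers summed to 111 to 116 CPM in KO and 104 to 110 CPM in WT (5 of 7 tested rose), macrophage markers to 74.7 to 76.3 CPM in KO and 52.0 to 55.4 CPM in WT (5 of 9 rose), and dendritic cell markers to 566 to 585 CPM in KO and 377 to 387 CPM in WT (5 of 7 rose and 2 fell). NK and CD8 cell markers summed to 69.7 to 85.7 CPM in KO and 112 to 115 CPM in WT (2 of 7 tested rose and 3 fell), mast cell markers to 108 to 122 CPM in KO and 199.5 CPM in each WT library (2 of 3 rose and 1 fell), and neutrophil markers summed to at most 2.33 CPM in both. Of the defining markers, Krt20, Fabp2, Ms4a1, Mcpt2, Mcpt4, Tpsb2, Fcer1a, Ly6g and Cxcr2 had no count in WT colon libraries, and Cd209a, S100a8, Elane and Retnlg had none in KO colon libraries.

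KO CD4+ T cells from the colon had more RNA of the adenosine-producing ectoenzyme gene Nt5e and of the receptor genes Adora2b and Adora3, and less of the receptor gene Adora2a. The level in KO relative to WT was 2.20 times for Nt5e and 2.69 times for Adora2b, and Adora2a stood at 70.1% of its WT level. The genes for CD39, adenosine deaminase, adenosine kinase and CD26 did not pass the test. In counts, 3 of the 8 genes rose, 1 fell and 4 did not pass edgeR's quasi-likelihood test with a Benjamini-Hochberg adjusted p threshold of 0.05 over all 13084 genes tested. In that comparison 39.5% of all tested genes were called, 19.6% higher and 19.9% lower. The KO and WT libraries did not overlap for 7 of the 8 genes, as for 70.5% of all tested genes. The median log2 fold change of the 8 genes was 0.19, beside 0.01 over all tested genes. All 8 passed the filter on low counts, Adora3 only through the KO libraries in which it is high, so that its entry into the test depended on the difference itself. Without it, 2 genes rose and 1 fell.

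**Figure D1:**
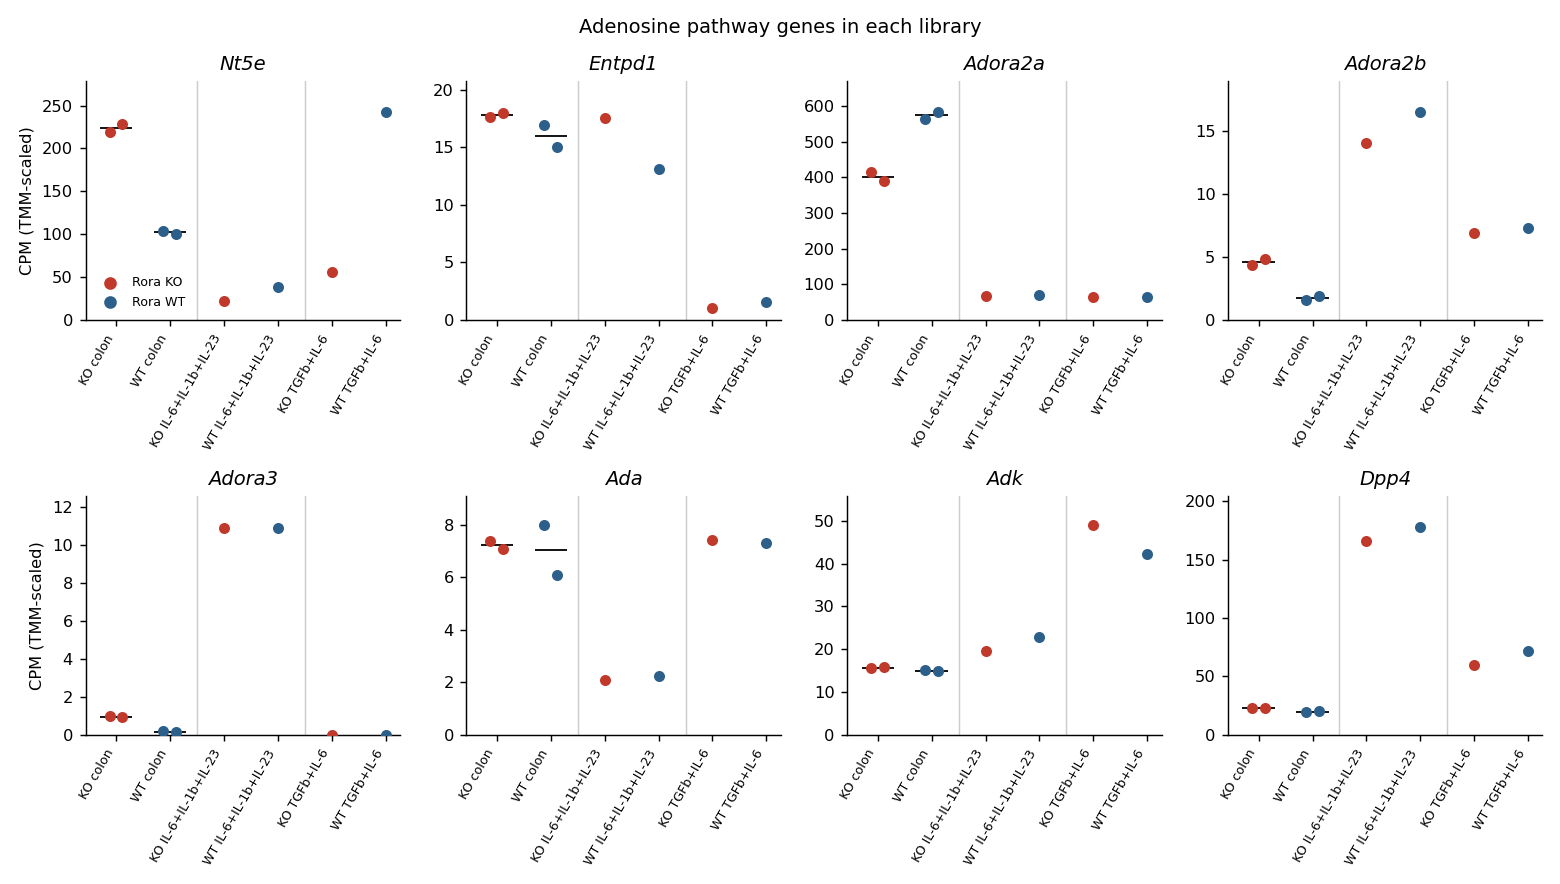
Level of each of the 8 genes in every library, in CPM on an axis from 0, with 1 point per library and a line at the mean of each colon group. Nt5e sits higher in the 2 KO colon libraries (219 and 228 CPM) than in the 2 WT colon libraries (103.5 and 100.4 CPM), and lower in each KO culture library than in its WT partner.

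Nt5e (chromosome 9, 88327197 to 88372092, plus strand, mm10) encodes CD73, the enzyme that makes adenosine from AMP. It measured 219 and 228 CPM in KO colon libraries, against 103.5 and 100.4 CPM in WT colon libraries. Both KO libraries lay above both WT libraries, and the replicates of each genotype were close together. The log2 fold change was 1.13 ± 0.08 (SE, n = 2 each), a fold of 2.20, and it ran from 1.09 to 1.15 when any 1 colon library was left out. Because T cell markers fell in the same libraries, Nt5e was also expressed per 1000 summed T cell marker counts, a measure chosen after seeing the data, which gave 23.2 ± 0.979 in KO and 8.26 ± 0.0813 in WT (SD, n = 2 each). In bulk RNA, a change in the number of cells that carry a transcript and a change in the amount per cell cannot be told apart. The part of the epithelial, fibroblast and B cell markers in this difference was not tested.

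In cultured cells the Nt5e difference ran the other way. Under IL-6+IL-1β+IL-23 Nt5e had 21.6 CPM in the KO library (330 counts) and 38.3 CPM in the WT library (579 counts), a ratio of 0.564 (95% counting interval 0.491 to 0.646). Under TGF-β+IL-6 it had 56.1 CPM in the KO library (891 counts) and 242 CPM in the WT library (3812 counts), a ratio of 0.231 (0.215 to 0.249). The KO library was the lower one in each mix, and the counting intervals of the ratios do not meet. Taking the mixes as repeats, the log2 fold change was -1.60 ± 0.25 (SE), which did not pass the threshold of the fit over all genes. It passed when libraries were scaled by DESeq2 size factors or by library totals. It did not pass with no filter on low counts (-1.60 ± 0.30) or in DESeq2's Wald test (-1.47 ± 0.61). With the main settings, the fit called 0.0143% of 13966 genes, namely Rora and Il17a, and none of the 8 genes described here. Before adjustment 487 genes had a p under 0.05, and DESeq2 called 6. Ratios past 2-fold were counted only for genes with 5 CPM or more in either library. Under IL-6+IL-1β+IL-23 none of the genes described here was past 2-fold, beside 0.290% of 9989 counted genes. Ada was too low to be counted there. Under TGF-β+IL-6 Nt5e was the only one past it, beside 0.250% of 9586 counted genes. Entpd1 and Adora3 were too low to be counted in that mix. In these libraries without replicates, being past 2-fold is a fact about the libraries and not a test of genotype.

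The genotype effect on Nt5e in the colon minus that in culture, with a genotype term shared by both mixes, was 2.70 ± 0.25 on the log2 scale. The same difference was 1.59 ± 0.28 for Adora2b, 2.55 ± 0.63 for Adora3, -0.49 ± 0.11 for Adora2a and 0.39 ± 0.13 for Dpp4, and these 5 genes were past the threshold in the joint fit of all 8 libraries. That fit called 17.3% of 14886 genes. For Adora2a and Adora3 the culture effect was near 0, so the difference is essentially the colon value. The Adora3 culture effect rests on IL-6+IL-1β+IL-23 alone (167 counts in KO and 165 in WT), because the gene had no count under TGF-β+IL-6. Ada (0.06 ± 0.28), Adk (0.04 ± 0.18) and Entpd1 (-0.10 ± 0.24) did not pass. For Nt5e the KO over WT log2 ratio was -0.82 under IL-6+IL-1β+IL-23 and -2.11 under TGF-β+IL-6, so the 2.70 stands for neither mix alone.

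**Figure D2:**
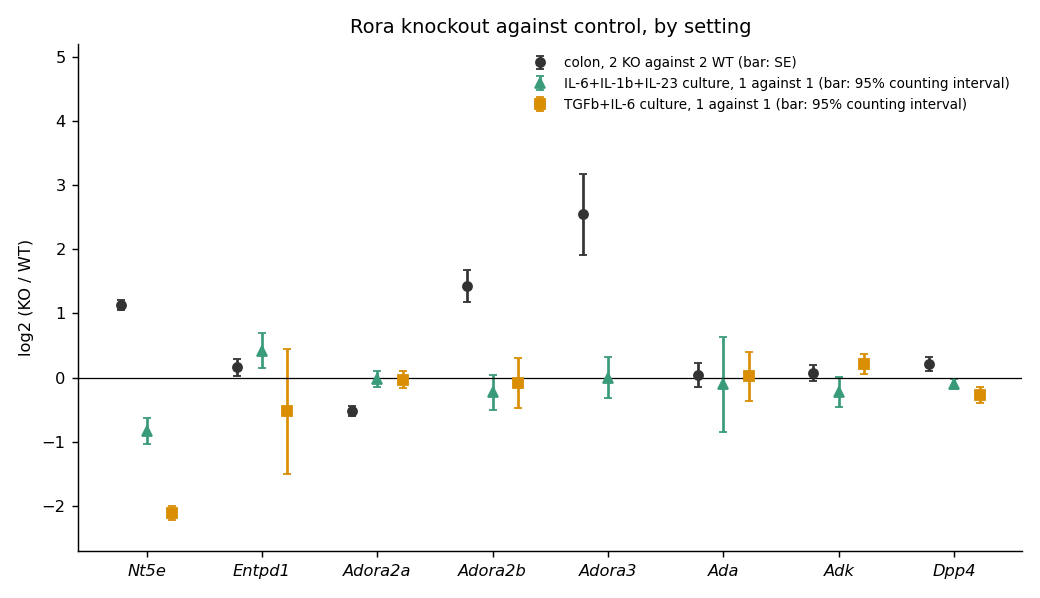
Log2 fold change KO over WT of each of the 8 genes in the colon (edgeR estimate with bars of 1 SE, n = 2 each) and in each culture mix (single libraries, bars are 95% counting intervals). Nt5e lies at 1.13 in the colon and below 0 in both mixes, whereas Adora2a lies below 0 in the colon and at about 0 in culture.

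Entpd1 (chromosome 19, 40612366 to 40741602, plus strand) encodes CD39, which supplies CD73 with AMP. It had 17.6 and 18.0 CPM in KO colon libraries, against 17.0 and 15.0 CPM in WT colon libraries. The KO values lay just above the higher WT library, and the log2 fold change of 0.16 ± 0.13 (SE, n = 2 each) did not pass. It passed at 0.35 when libraries were scaled by totals alone. In culture, Entpd1 had 17.6 CPM in KO and 13.2 CPM in WT under IL-6+IL-1β+IL-23, and 1.07 CPM in KO and 1.53 CPM in WT under TGF-β+IL-6. The KO to WT ratio was 1.34 (95% counting interval 1.11 to 1.61) under IL-6+IL-1β+IL-23. It was 0.701 (0.354 to 1.36) under TGF-β+IL-6, where the counts were 17 in KO and 24 in WT.

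Among the receptors, Adora2a (chromosome 10, 75316877 to 75334784, plus strand) encodes the main adenosine receptor of T cells. It had 415 and 389 CPM in KO colon libraries, against 564 and 583 CPM in WT colon libraries. Both KO libraries were lower than both WT libraries, with a log2 fold change of -0.51 ± 0.08 (SE, n = 2 each). It still fell with library totals alone, at -0.32. T cell markers, which had a median log2 fold change of -0.37, moved with it: per 1000 T cell marker counts Adora2a measured 41.7 ± 1.42 in KO and 46.5 ± 2.55 in WT (SD, n = 2 each), a log2 ratio of -0.16. The part of the T cell share in the fall of Adora2a was not tested. In culture Adora2a was nearly the same in the 2 genotypes, with 68.3 CPM in KO and 69.2 CPM in WT under IL-6+IL-1β+IL-23 and 62.9 CPM in KO and 64.3 CPM in WT under TGF-β+IL-6. The KO to WT ratio was 0.987 (95% counting interval 0.905 to 1.08) under IL-6+IL-1β+IL-23 and 0.978 (0.896 to 1.07) under TGF-β+IL-6.

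Adora2b (chromosome 11, 62248984 to 62266453, plus strand) encodes a receptor with a lower affinity for adenosine than the Adora2a receptor. It had 4.37 and 4.86 CPM in KO colon libraries, against 1.55 and 1.86 CPM in WT colon libraries, from 139 summed counts in KO and 45 in WT. Both KO libraries were above both WT libraries at this low level, with a log2 fold change of 1.43 ± 0.25 (SE, n = 2 each). Per 1000 T cell marker counts it was 0.479 ± 0.0417 in KO and 0.138 ± 0.0223 in WT. Macrophage, dendritic, epithelial and fibroblast markers were higher in the same KO libraries, and their part in the rise was not tested. In culture Adora2b had 14.1 CPM in KO and 16.5 CPM in WT under IL-6+IL-1β+IL-23, and 6.86 CPM in KO and 7.24 CPM in WT under TGF-β+IL-6. The KO library was slightly lower in both mixes. The ratio was 0.854 (0.708 to 1.03) under IL-6+IL-1β+IL-23 and 0.947 (0.721 to 1.24) under TGF-β+IL-6, and both counting intervals include 1.

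Adora3 (chromosome 3, 105870858 to 105908926, plus strand) encodes a receptor that couples to inhibitory G proteins, and 20.9% of its exon bases are shared with Tmigd3 on the same strand, so its counts are uncertain to that extent. Tmigd3 had no count in 6 of the libraries and 9 (KO) and 4 (WT) counts under IL-6+IL-1β+IL-23. In the colon Adora3 had 14 counts in each KO library and 2 in each WT library, or 0.957 and 0.907 CPM in KO against 0.163 and 0.143 CPM in WT. The summed counts of 28 in KO and 4 in WT give a ratio of 6.11 (95% counting interval 2.14 to 24.0). The log2 fold change was 2.54 ± 0.62 (SE, n = 2 each), and the gene was no longer called without WT replicate 1 (2.62), without WT replicate 2 (2.44) or in DESeq2 (2.59). Macrophage, dendritic, epithelial and fibroblast markers were higher in the same KO libraries. Of the 3 mast cell markers tested, 2 rose and 1 fell, with a median log2 fold change of 5.57. Of the 7 listed, 4 had counts in KO but none in WT. The sum of the mast cell markers was nevertheless lower in KO (108 to 122 CPM) than in WT (199.5 CPM in each library). The part of all these markers in the Adora3 rise was not tested.

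Neither gene for removal of adenosine passed the test in the colon. Ada (chromosome 2, 163726584 to 163750239, minus strand), for adenosine deaminase, had 7.38 and 7.06 CPM in KO colon libraries, against 7.99 and 6.09 CPM in WT colon libraries. The genotypes overlapped, with a log2 fold change of 0.04 ± 0.18 (SE, n = 2 each). Adk (chromosome 14, 21052574 to 21448569, plus strand), for adenosine kinase, had 15.6 and 15.8 CPM in KO colon libraries, against 15.1 and 14.8 CPM in WT colon libraries. Its log2 fold change of 0.07 ± 0.12 was smaller than its error. In culture Ada had 2.09 CPM in KO and 2.25 CPM in WT under IL-6+IL-1β+IL-23, and 7.42 CPM in KO and 7.31 CPM in WT under TGF-β+IL-6. The KO to WT ratio of Ada was 0.931 (95% counting interval 0.556 to 1.55) under IL-6+IL-1β+IL-23 and 1.02 (0.779 to 1.33) under TGF-β+IL-6. For Adk it was 0.857 (0.732 to 1.004) under IL-6+IL-1β+IL-23 and 1.16 (1.05 to 1.29) under TGF-β+IL-6.

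Dpp4 (chromosome 2, 62330073 to 62412231, minus strand) encodes CD26. It had 22.8 CPM in each KO colon library, against 19.2 and 20.1 CPM in the WT colon libraries. The KO values were above the WT values, but the log2 fold change of 0.22 ± 0.11 (SE, n = 2 each) did not pass, and it passed at 0.41 with library totals alone. In culture Dpp4 had 166 CPM in KO and 178 CPM in WT under IL-6+IL-1β+IL-23, and 59.5 CPM in KO and 72.0 CPM in WT under TGF-β+IL-6. The KO library was lower in each mix, with a ratio of 0.932 (95% counting interval 0.883 to 0.985) under IL-6+IL-1β+IL-23 and 0.826 (0.757 to 0.901) under TGF-β+IL-6. Scaling to T cell markers, chosen after seeing the data, moved the genes that did not pass away from 0. It divides every gene by the same marker sum, so all log2 ratios shift up by nearly the same amount. The shift is therefore no result about these genes. Per 1000 T cell marker counts the log2 ratio was 0.57 for Dpp4, 0.51 for Entpd1, 0.42 for Adk and 0.40 for Ada. The antisense gene Gm13561 overlaps 3.67% of the Dpp4 exon bases and had at most 17 counts in any library.

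Most of the 8 genes differed between the cytokine mixes in cultured cells, and the genes of the 2 ectoenzymes moved in opposite directions. Under IL-6+IL-1β+IL-23, CD39 RNA was higher and CD73 RNA lower than under TGF-β+IL-6. RNA of Adora2b, Adora3 and Dpp4 was higher, and RNA of both adenosine-removing enzymes was lower. Of the 8 genes, 4 rose (Entpd1, Adora2b, Adora3 and Dpp4), 3 fell (Nt5e, Ada and Adk) and Adora2a did not pass. Adora3 passed the filter on low counts only through the mix in which it is high, so it had to differ. In this comparison 69.7% of 13966 genes were called, 35.7% higher and 34.0% lower. Between single libraries, 7 of the 8 genes were past 2-fold in KO cells, beside 27.6% of 10238 genes with 5 CPM or more in either library. In WT cells 6 were, beside 28.1% of 10239 such genes.

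Nt5e in IL-6+IL-1β+IL-23 was 0.385 of its level in TGF-β+IL-6 in KO cells (95% counting interval 0.338 to 0.437) and 0.158 in WT cells (0.145 to 0.172). The counting intervals of the genotypes do not meet, and the WT level under TGF-β+IL-6 was the highest of the 4 cultures. Whether the mix effect differs by genotype could not be tested with 1 library each. Entpd1 was 16.4 times higher under IL-6+IL-1β+IL-23 in KO cells (10.1 to 28.6) and 8.62 times higher in WT cells (5.63 to 13.8). Both genotypes had few Entpd1 counts under TGF-β+IL-6, which makes these ratios wide. Adora3 had 167 counts in KO and 165 counts in WT under IL-6+IL-1β+IL-23, and no count in either TGF-β+IL-6 library. Set against a floor of 3 counts per library, that is at least 57.8-fold higher in KO cells and at least 57.2-fold higher in WT cells. Adora3 RNA was thus detected in 1 of the mixes only, in both genotypes.

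Adora2b was 2.05 times higher under IL-6+IL-1β+IL-23 than under TGF-β+IL-6 in KO cells (1.62 to 2.60) and 2.27 times higher in WT cells (1.81 to 2.86). Dpp4 was 2.79 times higher in KO cells (2.59 to 3.01) and 2.47 times higher in WT cells (2.31 to 2.65). Ada was 0.282 of its level under TGF-β+IL-6 in KO cells (0.184 to 0.419) and 0.308 in WT cells (0.203 to 0.454), from 32 to 118 counts a library. Adk had 19.5 CPM in KO and 22.8 CPM in WT under IL-6+IL-1β+IL-23 and 49.1 CPM in KO and 42.3 CPM in WT under TGF-β+IL-6. Its ratio between mixes was 0.398 in KO cells (0.347 to 0.455) and 0.539 in WT cells (0.472 to 0.615). Adora2a kept ratios of 1.09 in KO cells (0.995 to 1.19) and 1.08 in WT cells (0.986 to 1.17).

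Some markers of other cells also differed between the mixes. Fibroblast markers summed to 413 CPM (KO) and 449 CPM (WT) under IL-6+IL-1β+IL-23 and to 2.45 CPM (KO) and 2.16 CPM (WT) under TGF-β+IL-6, with Col3a1 and Mgp at 0 in all 4 libraries. Macrophage markers summed to 33.5 CPM (KO) and 35.1 CPM (WT) under IL-6+IL-1β+IL-23 and to 2.71 CPM (KO) and 2.35 CPM (WT) under TGF-β+IL-6, with Lyz2, C1qa, C1qb, C1qc and Fcgr1 at 0 in all 4. Dendritic cell markers summed to 290 CPM (KO) and 313 CPM (WT) under IL-6+IL-1β+IL-23, and to 40.9 CPM (KO) and 51.5 CPM (WT) under TGF-β+IL-6. T cell markers summed to 6615 CPM (KO) and 6667 CPM (WT) under IL-6+IL-1β+IL-23, and to 6543 CPM (KO) and 6676 CPM (WT) under TGF-β+IL-6. Neutrophil markers summed to 102 CPM (KO) and 86.2 CPM (WT) under IL-6+IL-1β+IL-23 and to 3.96 CPM (KO) and 3.30 CPM (WT) under TGF-β+IL-6, with S100a8, S100a9, Csf3r, Elane and Retnlg at 0 in all 4. Endothelial markers summed to 94.4 CPM (KO) and 85.1 CPM (WT) under IL-6+IL-1β+IL-23, and to 24.6 CPM (KO) and 20.5 CPM (WT) under TGF-β+IL-6. Regulatory T cell markers summed to 5267 CPM (KO) and 5340 CPM (WT) under IL-6+IL-1β+IL-23, and to 4317 CPM (KO) and 4549 CPM (WT) under TGF-β+IL-6, and 5 of 8 tested were higher and 1 lower under IL-6+IL-1β+IL-23. Epithelial, B and plasma cell, NK and CD8 cell and mast cell markers each summed to at most 26.3 CPM in any culture. The part of these marker differences in the values of the 8 genes was not tested.

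**Figure D3:**
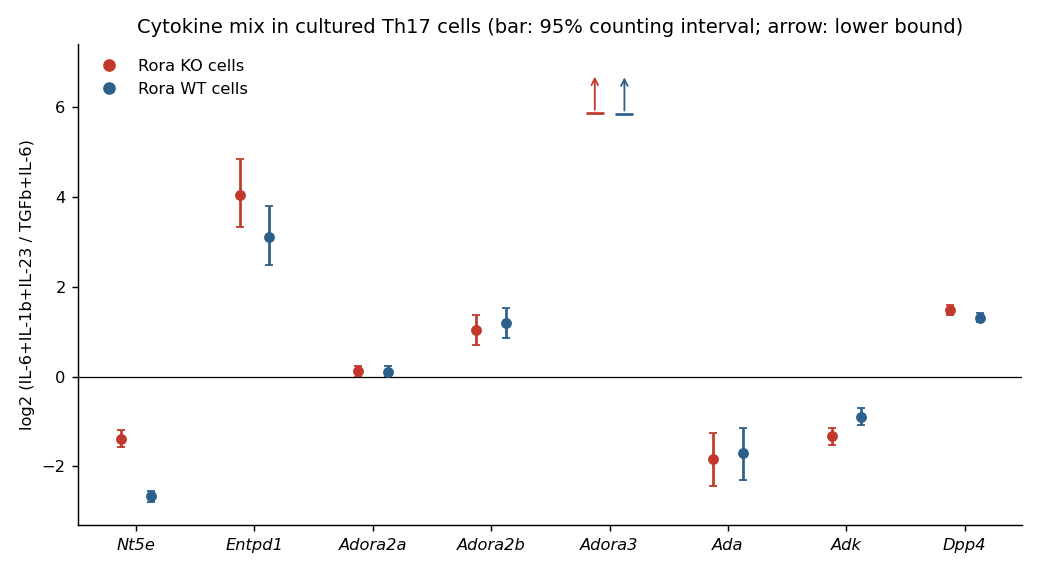
Log2 ratio of IL-6+IL-1β+IL-23 over TGF-β+IL-6 for each of the 8 genes, in KO and in WT cultured cells (1 library per point, bars are 95% counting intervals, arrows are lower bounds against a floor of 3 counts). Entpd1, Adora3 and Dpp4 lie above 0 and Nt5e, Ada and Adk below 0 in both genotypes.

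Levels were compared between genes as CPM per kilobase of exon, with one scaling for all 8 libraries. On this scale Adora2a was the most abundant of the 8 genes in the colon, at 144 ± 6.69 in KO and 207 ± 5.40 in WT (SD, n = 2 each). Nt5e came next with 28.6 ± 0.858 in KO and 13.1 ± 0.247 in WT. In the KO colon, Ada (3.97), Dpp4 (3.97), Entpd1 (3.51), Adora2b (2.75) and Adk (2.02) followed, with Ada and Dpp4 indistinguishable, and Adora3 (0.275) was last. In the WT colon the spread of Ada (3.88 ± 0.731) covered Dpp4 (3.43) and Entpd1 (3.17), and Adk (1.94) stood above Adora2b (1.02).

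Culture gave another order. Under IL-6+IL-1β+IL-23, Dpp4 led in both genotypes (24.0 in KO and 25.8 in WT), ahead of Adora2a (20.3 in KO and 20.7 in WT) and Adora2b (6.95 in KO and 8.16 in WT). Under TGF-β+IL-6, Adora2a led in KO cells (18.8), ahead of Dpp4 (8.60), Nt5e (5.95) and Adk (5.27), while Nt5e led in WT cells (25.7), ahead of Adora2a (19.1), Dpp4 (10.4) and Adk (4.52). Ada was the last in both IL-6+IL-1β+IL-23 libraries, and Entpd1 and Adora3 were the last in both TGF-β+IL-6 libraries. With 1 library each, the spread around these culture values is unknown.

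Across all 8 libraries on this scale, the order for Nt5e was KO colon (28.6), WT cells under TGF-β+IL-6 (25.7), WT colon (13.1), KO cells under TGF-β+IL-6 (5.95), WT cells under IL-6+IL-1β+IL-23 (4.07) and KO cells under IL-6+IL-1β+IL-23 (2.29). Adora2a was higher in every colon library (140 to 211) than in every culture library (18.8 to 20.7), and Entpd1 likewise (2.98 to 3.55 in the colon and 0.175 to 2.87 in culture). Adora2b (0.925 to 2.90 in the colon and 3.40 to 8.16 in culture), Adk (1.92 to 2.03 in the colon and 2.09 to 5.27 in culture) and Dpp4 (3.34 to 3.97 in the colon and 8.60 to 25.8 in culture) were lower in every colon library. The colon and culture libraries differ in source and were counted with different annotations, so these levels were not tested.

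**Figure D4:**
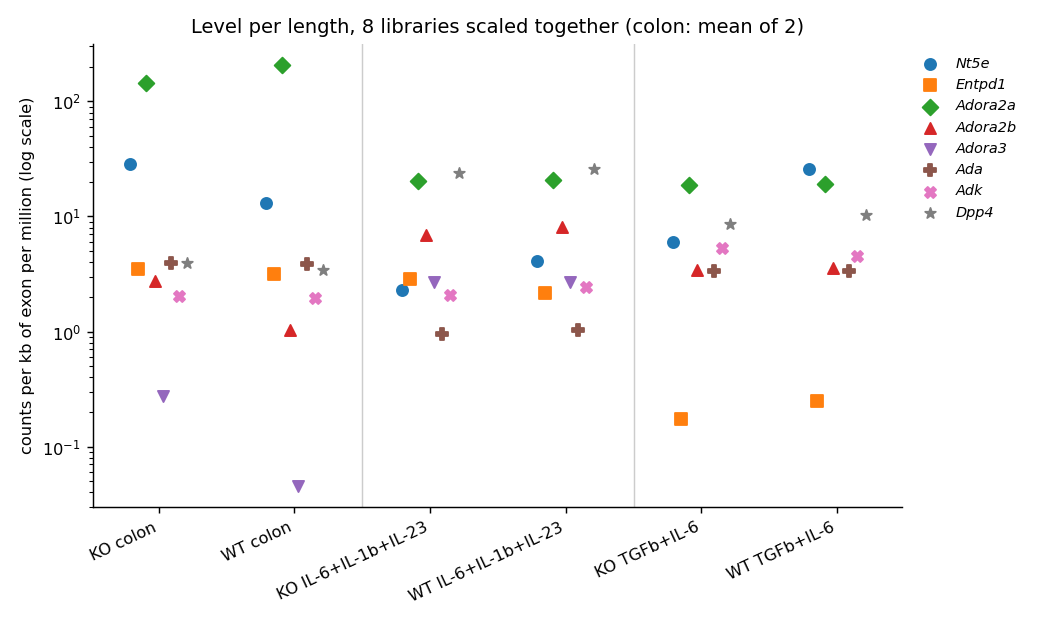
Level of the 8 genes in each group as CPM per kilobase of exon on a log scale, with one scaling for all libraries (colon points are means of 2 libraries, culture points are single libraries, and Adora3, which had no count under TGF-β+IL-6, is not drawn there). Adora2a leads in the colon (144 in KO and 207 in WT), Dpp4 under IL-6+IL-1β+IL-23 (24.0 in KO and 25.8 in WT), and Nt5e in WT cells under TGF-β+IL-6 (25.7).

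The genes whose pattern was most like Nt5e were ranked by Pearson's r of log2 CPM over the 8 libraries, among 8172 genes with an established symbol and a mean of 10 CPM or more. The 5 highest were Zfp869 (0.951), Galnt4 (0.938), Clcn4 (0.938), Gpr15 (0.922), a receptor known for T cell homing to the large intestine, and Rxra (0.922), a retinoid X receptor. Pearson's r takes no account of the size of a change. Zfp869 ran only from 12.6 to 23.4 CPM over the libraries and Galnt4 from 12.5 to 17.9 CPM, whereas Nt5e ran from 2.29 to 29.2 CPM per kilobase. Gpr15 had 41.7 and 47.4 CPM in KO colon libraries, against 7.46 and 8.32 CPM in WT colon libraries. In culture it had 2 counts in KO and 5 counts in WT under IL-6+IL-1β+IL-23, and 6.38 CPM in KO and 8.23 CPM in WT under TGF-β+IL-6. These CPM use the joint scaling of all 8 libraries. The likeness to Nt5e is what the ranking chose and is no further result. Among the other members that reached this level, r was 0.59 for Adora2a, 0.04 for Entpd1, -0.05 for Adk and -0.76 for Dpp4. These correlations are descriptions over libraries that share source and treatment.

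Beyond the 8 genes, 92 further genes of adenosine and ATP metabolism, transport and signalling were examined in 7 lists. In the colon 61 were tested, of which 11 rose, 12 fell and 38 did not pass, with a median log2 fold change of 0.10 beside 0.01 over all tested genes. The share called, 37.7%, was near the 39.5% of all tested genes, so the count says nothing particular about the pathway. The fourth receptor gene, Adora1, had at most 0.143 CPM in any library and was not tested. Of 10 genes for other ectoenzymes of nucleotide breakdown, 3 were tested, and Cd38, which consumes NAD, fell (-0.42 ± 0.12, SE; edgeR quasi-likelihood, Benjamini-Hochberg adjusted p = 0.018). Of 11 genes for intracellular and lysosomal nucleotidases, 8 were tested, 1 rose and 1 fell. Nt5c3, for a cytosolic nucleotidase, rose (0.60 ± 0.14; edgeR adjusted p = 0.0056) and Entpd7 fell (-0.52 ± 0.15; edgeR adjusted p = 0.016). Of 7 nucleoside transporter genes, 5 were tested, and Slc29a1, for the equilibrative transporter ENT1 that carries adenosine across the membrane, rose to 87.2 ± 0.0538 CPM in KO against 71.2 ± 1.49 CPM in WT (SD, n = 2 each; edgeR adjusted p = 0.015).

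Of 14 tested genes of purine salvage and AMP or S-adenosylhomocysteine metabolism (18 listed), 2 rose, 4 fell and 8 did not pass, so that 42.9% were called beside 39.5% of all tested genes. The 4 that fell were Ahcy, Aprt, Pnp and Xdh, of which the last 2 were singled out after their values were seen. Ahcy, for the hydrolase that releases adenosine from S-adenosylhomocysteine, fell (-0.48 ± 0.12, SE; edgeR quasi-likelihood, Benjamini-Hochberg adjusted p = 0.0086), as did Aprt (-0.39 ± 0.09; edgeR adjusted p = 0.0037), for adenine salvage. The members that rose were Ahcyl1 (0.33 ± 0.09) and Ahcyl2 (0.31 ± 0.08), whose proteins resemble the Ahcy hydrolase, both with an edgeR adjusted p of 0.011. Among 7 tested genes of ATP release and P2 receptors (15 listed), P2ry2, for a receptor of ATP and UTP, fell to 3.44 ± 0.928 CPM in KO against 7.24 ± 0.0940 CPM in WT (SD, n = 2 each; edgeR adjusted p = 0.0023), and 6 did not pass. T cell markers fell and epithelial, fibroblast and B cell markers rose in the same libraries.

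Downstream of the receptors, 24 of 30 cyclic AMP signalling genes were tested in the colon, of which 7 rose, 5 fell and 12 did not pass. That is 12 of 24 called, beside 39.5% of all tested genes. Adcy7, for an adenylyl cyclase found in blood cells, rose to 49.3 ± 0.663 CPM in KO against 28.3 ± 2.96 CPM in WT (SD, n = 2 each; edgeR quasi-likelihood, Benjamini-Hochberg adjusted p = 1.4e-04). Pde3b, for a phosphodiesterase that breaks down cyclic AMP, rose to 176 ± 7.63 CPM in KO against 116 ± 16.8 CPM in WT (edgeR adjusted p = 6.7e-04), and Pde8a to 17.3 ± 1.35 CPM in KO against 11.6 ± 0.0711 CPM in WT (edgeR adjusted p = 0.0054). Crtc2, for a coactivator of CREB, fell to 150.0 ± 6.63 CPM in KO against 211 ± 7.13 CPM in WT (edgeR adjusted p = 5.8e-04). Among the other phosphodiesterase genes of the list, Pde4a rose (0.65 ± 0.16, edgeR adjusted p = 0.0085) and Pde7a fell (-0.25 ± 0.08, edgeR adjusted p = 0.035). Pde1b, Pde4b and Pde4d did not pass, and Pde7b was not tested. Pde4a and Pde7a were singled out after their values were seen. T cell markers fell and markers of other cells rose in the same libraries, and their part in these differences was not tested.

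Of the named pathway genes in the colon, 6 lost their call without 1 library. Cd38 was no longer called without WT replicate 2 or KO replicate 1, Nt5c3 without KO replicate 2, Slc29a1 without WT replicate 2 or KO replicate 2, Ahcy without WT replicate 1, and Ahcyl1 and Ahcyl2 without KO replicate 2. With library totals Cd38, Entpd7, Aprt and Ahcy were no longer called, and in DESeq2 Cd38, Entpd7, Slc29a1, Ahcyl2 and Pde8a were not. In the colon Nt5c3 changed by 0.37 without KO replicate 2 and Ahcy by -0.30 without WT replicate 1. None of the 70 pathway genes tested for genotype in culture passed edgeR's quasi-likelihood test, in which 2 of 13966 genes passed.

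**Figure D5:**
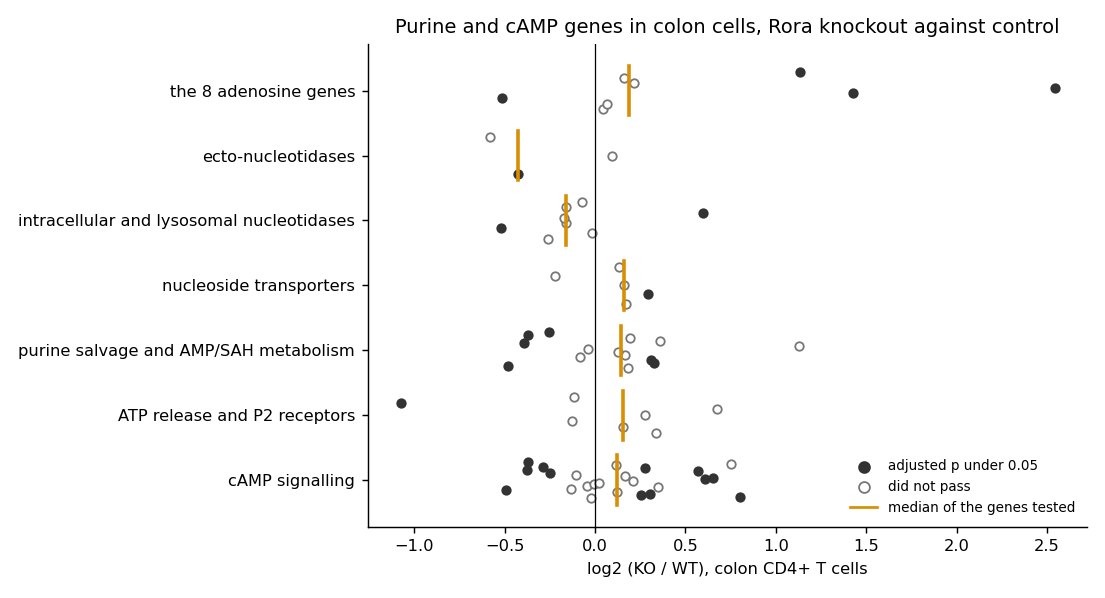
Log2 fold change KO over WT in the colon of the tested genes of each pathway list (1 point per gene, filled where past an adjusted p of 0.05 in edgeR's quasi-likelihood test, vertical lines are list medians), beside the 8 genes described here. The median of the pathway genes is 0.10, and Nt5e (1.13), Adora2b (1.43) and Adora3 (2.54) lie above it.

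Between cytokine mixes, 70 of the 92 genes were tested, of which 22 were higher under IL-6+IL-1β+IL-23, 24 lower and 24 did not pass, with a median log2 fold change of 0.09. The share called was 65.7%, beside 69.7% of all tested genes. Slc29a1, the gene for ENT1, fell to 69.6 CPM (KO) and 63.1 CPM (WT) under IL-6+IL-1β+IL-23, against 331 CPM (KO) and 325 CPM (WT) under TGF-β+IL-6 (log2 fold change -2.30 ± 0.07, SE; edgeR quasi-likelihood, Benjamini-Hochberg adjusted p = 3.4e-07). Enpp2, for autotaxin, which makes the lipid mediator lysophosphatidic acid, had 544 CPM (KO) and 519 CPM (WT) under IL-6+IL-1β+IL-23, against 0.818 CPM (KO) and 0.699 CPM (WT) under TGF-β+IL-6 (9.44 ± 0.12; edgeR adjusted p = 1.8e-08). Fibroblast and dendritic cell markers were higher in the same libraries, and their part in the Enpp2 difference was not tested. Alpl, for an alkaline phosphatase that can also make adenosine from AMP, fell (-2.38 ± 0.28; edgeR adjusted p = 1.6e-04), with 0.915 CPM (KO) and 0.661 CPM (WT) under IL-6+IL-1β+IL-23, against 4.78 CPM (KO) and 3.50 CPM (WT) under TGF-β+IL-6.

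Among the intracellular enzymes and transporters, Entpd6 (-1.03 ± 0.10, SE), Slc29a3 (-0.64 ± 0.09), Ahcyl1 (-0.80 ± 0.07) and Ampd2 (-0.77 ± 0.07), for AMP deaminase, fell under IL-6+IL-1β+IL-23, and Nt5c (0.57 ± 0.08) rose. The largest of their edgeR adjusted p-values was 4.2e-04. Of the receptor and signalling genes, Nr4a3, an orphan nuclear receptor gene induced by activation, fell to 62.9 CPM (KO) and 35.6 CPM (WT), against 794 CPM (KO) and 788 CPM (WT) under TGF-β+IL-6 (-4.04 ± 0.17; edgeR adjusted p = 1.1e-06). Prkar1b, for a regulatory subunit of protein kinase A, rose to 20.7 CPM (KO) and 20.9 CPM (WT), against 1.20 CPM (KO) and 1.46 CPM (WT) under TGF-β+IL-6 (3.96 ± 0.18; edgeR adjusted p = 1.3e-06). P2ry14, for a receptor of UDP sugars, had 3.86 CPM (KO) and 3.11 CPM (WT) under IL-6+IL-1β+IL-23, against 0.0629 CPM (KO) and 0.0635 CPM (WT) under TGF-β+IL-6, where each library held 1 count. P2ry12, for an ADP receptor, had 3.27 CPM (KO) and 5.09 CPM (WT) under IL-6+IL-1β+IL-23, and no count in either TGF-β+IL-6 library. The P2ry12 difference passed edgeR's test but not DESeq2's. Both P2ry14 and P2ry12 passed the filter on low counts only through the mix in which they are high, so they had to differ. Both are among the pathway genes counted as higher.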

How the data were processed

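Per the labels, RNA was sequenced from 4 colon and 4 culture libraries of mouse CD4+ T cells. The deposited files hold raw counts per gene made by the authors, with no normalization. Per the submitters' processing notes, Trim Galore, Bowtie2, featureCounts, edgeR and DESeq2 were used with build mm10. Their versions, the strandedness of counting and the read type are not stated in the sources used here. The colon files list 54446 entries and the culture files 55341, under different annotations, and 53657 were joined by symbol. In each file 26 or 27 symbols had become dates (at most 0.269% of counts) and were not used. Coordinates and exon lengths are from GENCODE M21 on the same build.

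Members and lists were chosen with earlier results of these data known. Genes were tested in R 4.3.3 with edgeR 4.0.16 (filterByExpr, TMM, quasi-likelihood F-test, Benjamini-Hochberg over all genes, threshold 0.05). The colon was fitted alone (2 KO against 2 WT). The cultures were fitted with terms for mix and genotype, with 1 residual degree of freedom. The genotype effect in colon minus that in culture was fitted over all 8 libraries. Single libraries were compared by ratios with exact 95% intervals, which cover counting error only; 2-fold was counted with a prior count of 2 where either library had 5 CPM. CPM are scaled by TMM within colon or culture, except for values per kilobase and for Gpr15, Zfp869 and Galnt4, which use a joint TMM scaling. Named genes were the 8 members, up to 4 genes of each pathway list with the smallest p in the colon and 2 between mixes, the 5 genes most like Nt5e with an established symbol, and Rora. The colon replicates differed by more than counting error (chi-square per gene 5.51 in KO and 7.57 in WT). Nothing says that they came from separate mice, so the p-values reflect the spread of these libraries alone, and that spread may be technical. The spread was a biological coefficient of variation of 7.48% in the colon and 5.75% in culture. The methods were tested on simulated data. Alternatives were other scalings (DESeq2 1.42.0 size factors, library totals), no filter, DESeq2's Wald test, leaving out each colon library, and a replicate block; scaling by T cell marker counts was added after seeing the data.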

Additional observations from a re-analysis of the deposited data

Results flagged for a closer look

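For Nt5e (difference 2.70 on the log2 scale), Adora2b (1.59) and Dpp4 (0.39), every KO colon library was above every WT colon library and the KO culture library was below its WT partner in both mixes. In the colon, KO and WT libraries did not overlap for 70.5% of all tested genes, and Dpp4 did not pass the colon test. Both culture counting intervals of Adora2b include 1. The share of all genes with such opposite directions is not given here. Nt5e, Adora2b and Dpp4 were chosen with the values known, so their differences are a description. The differences were past the threshold of the joint fit, but an independent difference was not tested. The same holds for Adora2a (-0.49) and Adora3 (2.55), whose culture effects were near 0, that of Adora3 from IL-6+IL-1β+IL-23 alone. Rora, the deleted gene, fell in both settings, with a difference of 0.43 (edgeR adjusted p = 0.027). Among the other pathway genes, 73 were tested for the colon effect minus the culture effect. In edgeR's quasi-likelihood test (Benjamini-Hochberg adjusted over all genes), 4 passed with a positive and 4 with a negative difference. That is 11.0% called, beside 17.3% of all 14886 genes tested, so the count says nothing particular about the pathway. For the 6 named genes among them, the difference was -0.53 for Ahcy (edgeR adjusted p = 0.025), -1.24 for P2ry2 (edgeR adjusted p = 0.034) and -0.51 for Crtc2 (edgeR adjusted p = 0.0068). It was 0.91 for Adcy7 (edgeR adjusted p = 6.0e-04), 0.76 for Pde3b (edgeR adjusted p = 0.0017) and 0.92 for Pde8a (edgeR adjusted p = 0.011). The others that passed were P2ry1 (2.89, edgeR adjusted p = 0.022) and Bst1 (-3.76, edgeR adjusted p = 0.031). Markers of other cell types moved with genotype in the colon, and their part in these differences was not tested.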

How the results depend on the processing

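The number of genes called for genotype in the colon was 5165, and 3442 with DESeq2's Wald test. It ran from 4191 to 5102 when any 1 colon library was left out, and the other settings stayed within 1.5 times. Whether the replicate numbers pair the colon libraries is not known. Deviations of the KO and WT libraries with the same replicate number correlated at 0.15. That is a single value, because with 2 replicates the deviations mirror each other. The fit with a replicate block called 6186. In culture 2 genes were called for genotype, 9 with DESeq2 size factors, 9 with library totals, 0 with no filter on low counts and 6 with DESeq2, and no leave-one-out was run because each combination has 1 library. Library totals shifted colon log2 fold changes by a median of 0.19, and 77.4% of calls were then higher in KO, against 49.6% with TMM. No called value of a named gene reversed direction under the settings run. Of values that had not passed, Ada in the colon (0.04) turned to -0.16 without WT replicate 2 and -0.0039 without KO replicate 1, and Adora3 in culture (0.0014) to -1.2e-04 with no filter. In all, 20 gene values in the colon lost their call and 2 gained one (Entpd1 and Dpp4 with library totals). With the scaling to T cell markers, 8, one for each member, differed from the TMM values by over 1 replicate SD. That scaling shifts every gene by nearly the same amount, so these differences follow from the marker sum. Depth limits Adora3 most, with 4 counts over both WT colon libraries, and with single culture libraries no genotype effect within a mix could be tested.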
